A study of Homo sapiens with 9 samples.

Results

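LGALS1, LGALS3 and LGALS8 encode galectin-1, galectin-3 and galectin-8, and the 3 genes were followed across 9 RNA sequencing libraries of human cells. They were taken as the rows of the deposited table whose numeric gene identifiers (3956, 3958 and 3964) carry these symbols, and all 3 of 3 were found among 18064 rows. The genes were chosen by their FPKM levels across all 3 groups. Their values are therefore given as a description with fold changes and standard errors (SE), and no test is applied to them. Genes outside this trio were tested.

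Each group had 3 libraries: si1-BCLIN25 and si2-BCLIN25, each transfected with a different siRNA directed at the RNA BCLIN25, and si-NC, which received a control siRNA. By the library titles all 9 come from MDA-MB-231/PTX, a line selected for paclitaxel resistance from MDA-MB-231, which is a triple-negative breast cancer line. The labels' protocols describe culture in RPMI medium with serum. The source and treatment fields of the same libraries name PC9/GR, a lung adenocarcinoma line resistant to gefitinib, and constructs against another RNA, HUMT, so the cell line and the target are in dispute and the groups are called as titled. No time after transfection and no separate culture per replicate is stated, so every p-value below refers to the spread of these libraries alone, and that spread may be technical.

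BCLIN25 itself was not analysed here, so its knockdown was not checked. Levels are in FPKM, a fragment count divided by the transcript's length and the library's mapped total, and sequencing depth is unknown. FPKM summed to between 408641 and 419025 in the siRNA libraries and between 394081 and 405922 in the si-NC libraries. The si-NC columns carry a header prefix that the siRNA columns do not, so group and any unequal handling cannot be told apart. The epithelial genes CDH1, EPCAM, ESRP1, KRT8, KRT18 and KRT19 all reached 1 FPKM in every library. ZEB1, a mesenchymal factor that defines MDA-MB-231, stayed at or below 0.14 FPKM in all 9, and the lung markers NKX2-1 and NAPSA at or below 0.78 and 0.34 FPKM. The other 7 of 8 listed MDA-MB-231 markers reached 1 FPKM in every library, as did KRT7, EGFR and CDH1 of the lung list. The levels therefore go with each named line in part and against it in part.

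Galectins are small lectins that bind galactose-containing sugars, chiefly N-acetyllactosamine on branched glycans. They leave the cell without a signal peptide, cross-link glycoproteins at the surface and in the matrix, and also act inside the cell. Galectin-1 is a dimer with 1 sugar-binding domain per chain, known in tumours for effects on T cells, adhesion and vessel growth. Galectin-3 joins 1 such domain to a flexible N-terminal tail through which it self-associates. Galectin-8 carries 2 different domains on 1 chain and marks damaged vesicles for autophagy by recruiting CALCOCO2.

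The part of each transcript that encodes the sugar contacts is shown because it is what makes the 3 genes a family and because reads from a shared stretch could be split between them. The sequences are coding-strand stretches of GENCODE release 29 transcripts (GRCh38), 5′ to 3′, of LGALS1 on chromosome 22, LGALS3 on chromosome 14 and LGALS8 on chromosome 1. Capitals mark 6 codons: those of the histidine, asparagine, arginine, second asparagine, tryptophan and glutamate known to contact galactose.
LGALS1: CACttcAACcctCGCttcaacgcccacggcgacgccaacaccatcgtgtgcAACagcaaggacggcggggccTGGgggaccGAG
LGALS3: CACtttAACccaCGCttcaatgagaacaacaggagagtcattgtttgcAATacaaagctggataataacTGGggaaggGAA
LGALS8, first domain: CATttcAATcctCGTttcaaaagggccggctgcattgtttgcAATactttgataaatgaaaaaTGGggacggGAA
LGALS8, second domain: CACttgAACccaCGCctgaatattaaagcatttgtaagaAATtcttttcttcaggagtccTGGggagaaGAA

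The 4 stretches were chosen because they encode the marked residues, so nothing is read from their sharing these residues. The marked codons themselves were not all the same. The histidine codon was CAT in the first domain of LGALS8 and CAC in the other stretches. The bases between the marked codons also differed. LGALS3 and the first domain of LGALS8 were the closest pair, with 65.4% identical bases in a global alignment, and LGALS1 and the second domain of LGALS8 the most distant, with 48.8%. LGALS1 and LGALS3 were 57.1% identical. The first LGALS8 stretch was found in 14 of 16 coding transcripts of the gene and the second in 10 of 16, so some isoforms hold 1 of them, and the deposited value is 1 level for the whole gene. Of 511 distinct windows of 50 bases in the LGALS1 transcript, 0 occurred in the transcripts of any other gene. Of LGALS3 windows 1.34% did, and of LGALS8 windows 0.08%, in 0 other galectin genes in each case.

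LGALS1 was several times higher in both siRNA groups than in si-NC. Its level was 151, 147 and 148 FPKM in si1-BCLIN25, 165, 163 and 164 FPKM in si2-BCLIN25, and 34.1, 32.8 and 34.0 FPKM in si-NC. All 6 siRNA libraries lay above all 3 si-NC libraries, and replicates of a group differed far less than the groups did. The mean was 148 ± 2.5 FPKM in si1-BCLIN25, 164 ± 0.87 in si2-BCLIN25 and 33.6 ± 0.69 in si-NC (SD, n = 3 each), so the mean of si1-BCLIN25 was 4.42 times and that of si2-BCLIN25 4.88 times the si-NC mean. On the log2(FPKM + 1) scale, which is used for every fold change below, the differences from si-NC were 2.11 in si1-BCLIN25 and 2.25 in si2-BCLIN25 (SE 0.032). Among 12317 genes with at least 1 FPKM in 3 libraries, these ranked 46 and 33 from the top. In si1-BCLIN25 64.7% of all these genes had no overlap with si-NC, 39% of all being higher; in si2-BCLIN25 the shares were 67.1% and 40.5%, so the separation alone is common in this series and nothing is read from it.

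The siRNA groups themselves also differed in LGALS1, by a small amount. All 3 si1-BCLIN25 libraries lay below all 3 si2-BCLIN25 libraries, with a log2 fold change of -0.14 (SE 0.032) for si1-BCLIN25 over si2-BCLIN25. Libraries of these 2 groups did not overlap for 25.9% of genes, 14.1% of all being lower in si1-BCLIN25.

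LGALS3 differed from si-NC in 1 siRNA group and overlapped it in the other. Its level was 23.6, 21.2 and 23.1 FPKM in si1-BCLIN25, 28.8, 33.4 and 27.1 FPKM in si2-BCLIN25, and 31.2, 30.1 and 31.5 FPKM in si-NC. All si1-BCLIN25 libraries were below all libraries of the other groups, while si2-BCLIN25 had 1 library above and 2 below every si-NC library. The means were 22.6 ± 1.3 FPKM in si1-BCLIN25, 29.8 ± 3.3 in si2-BCLIN25 and 30.9 ± 0.71 in si-NC (SD, n = 3 each). The log2 fold change from si-NC was -0.43 in si1-BCLIN25 and -0.06 in si2-BCLIN25 (SE 0.066). The second of these is smaller than its SE. It was 0.004 without si2-BCLIN25 replicate 3, and -0.14 (SE 0.054) without replicate 2 of that group, the library at 33.4 FPKM. Libraries did not overlap downward for 25.7% of all genes in si1-BCLIN25 and 26.6% in si2-BCLIN25.

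Between the siRNA groups LGALS3 had a log2 fold change of -0.38 (SE 0.066) for si1-BCLIN25 over si2-BCLIN25. It stood 23 from the lowest among the 12317 genes of that comparison. Its value changed with the libraries used: leaving out each library in turn gave -0.44 to -0.29, and si2-BCLIN25 replicate 2, the library at 33.4 FPKM, gave the smallest difference when left out. Across that whole comparison limma called 72 genes at an adjusted p below 0.05, which is 0.585%, with 0.309% higher and 0.276% lower in si1-BCLIN25. That count rests on single libraries: it was 5 without si1-BCLIN25 replicate 2, 5 without replicate 3 of that group, 3, 8 and 2 without si2-BCLIN25 replicate 1, 2 and 3, and 126 without si-NC replicate 1.

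LGALS8 was slightly lower in both siRNA groups than in si-NC. Its level was 20.4, 20.0 and 20.7 FPKM in si1-BCLIN25, 20.8, 19.7 and 20.1 FPKM in si2-BCLIN25, and 23.0, 23.9 and 23.4 FPKM in si-NC. All 6 siRNA libraries lay below all 3 si-NC libraries, and the siRNA groups overlapped each other. Of all genes, 25.7% in si1-BCLIN25 and 26.6% in si2-BCLIN25 lay below si-NC without overlap, so nothing is read from the separation. The means were 20.3 ± 0.35 FPKM in si1-BCLIN25, 20.2 ± 0.57 in si2-BCLIN25 and 23.4 ± 0.48 in si-NC (SD, n = 3 each). The log2 fold changes from si-NC were -0.20 in both groups (SE 0.038), and 0.01 for si1-BCLIN25 over si2-BCLIN25 (SE 0.038). Both comparisons with si-NC use the same 3 control libraries, so the values of the siRNA groups are not independent of each other for any gene.

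**Figure D1:**
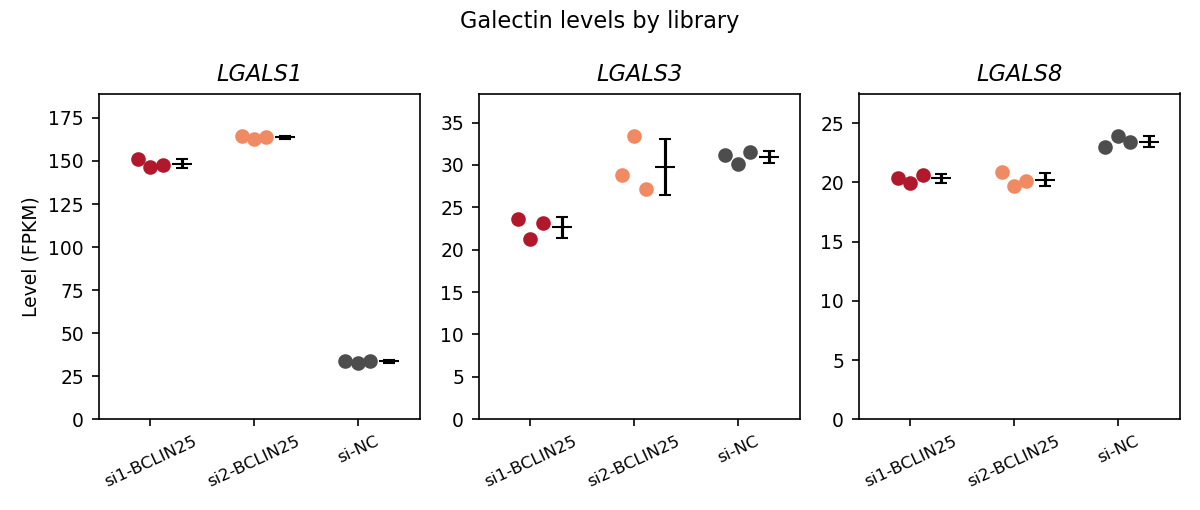
Level in FPKM (vertical axes, from 0) of LGALS1, LGALS3 and LGALS8 in each library of si1-BCLIN25, si2-BCLIN25 and si-NC; points are libraries and the bar beside them is the mean ± SD of 3. LGALS1 lies at 147 to 165 FPKM in the siRNA libraries and at 32.8 to 34.1 FPKM in si-NC, LGALS3 is lowest in si1-BCLIN25, and LGALS8 is about 3 FPKM lower in both siRNA groups.

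Since FPKM is per length, the galectins can be set side by side within a library. In si-NC the order was LGALS1, LGALS3 and LGALS8, close together: LGALS1 was 1.09 ± 0.0073 times LGALS3 and 1.43 ± 0.057 times LGALS8 (SD, n = 3). In si1-BCLIN25 LGALS1 was 6.57 ± 0.30 times LGALS3 and 7.31 ± 0.15 times LGALS8, and in si2-BCLIN25 it was 5.55 ± 0.61 times LGALS3 and 8.11 ± 0.19 times LGALS8 (SD, n = 3 each). The order of the 3 genes was the same in every group. LGALS3 and LGALS8 were nearest to each other in si1-BCLIN25, at a ratio of 1.11 ± 0.048, against 1.48 ± 0.19 in si2-BCLIN25 and 1.32 ± 0.053 in si-NC.

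The summed level of the 10 galectin genes in the table was 197 ± 3.5 FPKM in si1-BCLIN25 and 220 ± 2.4 in si2-BCLIN25, against 95.5 ± 1.4 FPKM in si-NC. LGALS1 made up 75.3 ± 0.30% of it in si1-BCLIN25, 74.6 ± 1.1% in si2-BCLIN25 and 35.2 ± 0.33% in si-NC (SD, n = 3 each). LGALS3 made up 11.5%, 13.5% and 32.4% in the same order of groups, and LGALS8 10.3%, 9.20% and 24.5%. The higher LGALS1 level lowers the share of every other galectin whether or not that galectin's own level differs.

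**Figure D2:**
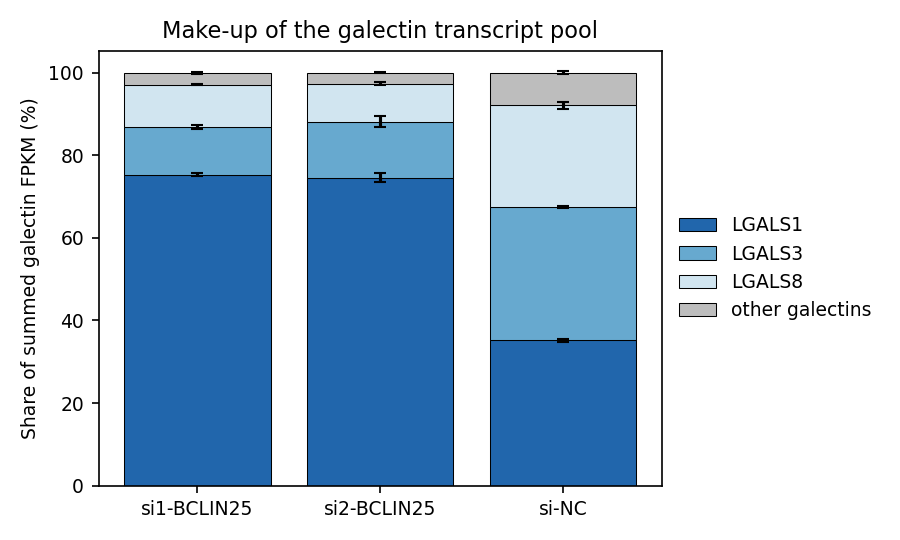
Share of the summed galectin FPKM (vertical axis, percent, from 0) held by LGALS1, LGALS3, LGALS8 and 7 other galectin genes in si1-BCLIN25, si2-BCLIN25 and si-NC; segments are means of 3 libraries and error bars their SD. LGALS1 holds 75.3% and 74.6% in the siRNA groups and 35.2% in si-NC.

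The other galectins were scarce. Of 14 listed, 7 were in the table and 2 reached 1 FPKM in 3 libraries. LGALSL, a galectin-related protein, fell to 2.32 ± 0.070 FPKM in si1-BCLIN25 and 2.6 ± 0.25 in si2-BCLIN25, against 4.11 ± 0.37 FPKM in si-NC (SD, n = 3 each). Its log2 fold changes were -0.62 and -0.51 (limma SE 0.073; adjusted p = 1.03e-05 and 6.16e-05), and it lies on chromosome 2, where its 10 nearest tested neighbours had median log2 fold changes of -0.06 and -0.08. LGALS9, which acts on T cells, was at 2.44 ± 0.43 FPKM in si1-BCLIN25, 2.21 ± 0.35 in si2-BCLIN25 and 2.58 ± 0.11 in si-NC (adjusted p in limma = 0.573 and 0.16). LGALS2 and LGALS4, galectins of the gut, stayed at or below 1.02 and 0.46 FPKM, and LGALS7B, a keratinocyte galectin, at or below 0.49 FPKM with every si-NC library listed at 0. LGALS9C and the lens gene GRIFIN stayed at or below 0.16 and 0.03 FPKM. LGALS9C and LGALS7B each have a near-identical copy in the genome, so their values are uncertain.

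The genes beside each galectin on its chromosome were listed with their fold changes. For the 10 tested genes nearest to LGALS1 on chromosome 22, CARD10 to ANKRD54, the median log2 fold change was -0.003 in si1-BCLIN25 and -0.01 in si2-BCLIN25, with the highest at 1.19 and 1.07 for SH3BP1, while LGALS1 stood at 2.11 and 2.25. Around LGALS3 the medians were 0.10 and 0.17, and around LGALS8 0.21 and 0.23, beside 0.06 over all genes. LGALS8 itself was below 0 in both siRNA groups. LGALS3 was below 0 in si1-BCLIN25, while in si2-BCLIN25 its fold change was smaller than its SE.

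Genes whose profiles were most like each galectin were found by the smallest root mean square difference of centred log2(FPKM + 1) values over the 9 libraries. Since the groups set these profiles, the likeness is a description. For LGALS1 the nearest were the lipid transporter family gene ABCA10, the growth factor pleiotrophin (PTN) and PPP2R2B, a regulatory subunit of protein phosphatase 2A, with differences of 0.070, 0.081 and 0.095. All are far less abundant: PTN was at 21.2 ± 0.85 FPKM in si1-BCLIN25, 22.2 ± 0.97 in si2-BCLIN25 and 3.68 ± 0.18 in si-NC (SD, n = 3 each). ABCA10 was at 15.6, 15.6 and 2.80 FPKM in the same order, but without the step between the siRNA groups that LGALS1 had.

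For LGALS3 the nearest were the transcription factor MYBL1, TRNP1 and the exonuclease ERI1, at 0.076, 0.086 and 0.088. MYBL1 was at 9.56 ± 0.59 FPKM in si1-BCLIN25, 12.03 ± 0.44 in si2-BCLIN25 and 12.96 ± 0.44 in si-NC (SD, n = 3 each). TRNP1 lay near the 1 FPKM minimum. For LGALS8 the nearest were PPP6R3, a subunit of protein phosphatase 6, the myosin MYO1D and the lipid-binding protein OSBPL3, at 0.021, 0.023 and 0.023. PPP6R3 was at 45.9 ± 0.65 FPKM in si1-BCLIN25, 45.2 ± 0.85 in si2-BCLIN25 and 52.5 ± 0.68 in si-NC (SD, n = 3 each), the same small step as LGALS8.

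**Figure D3:**
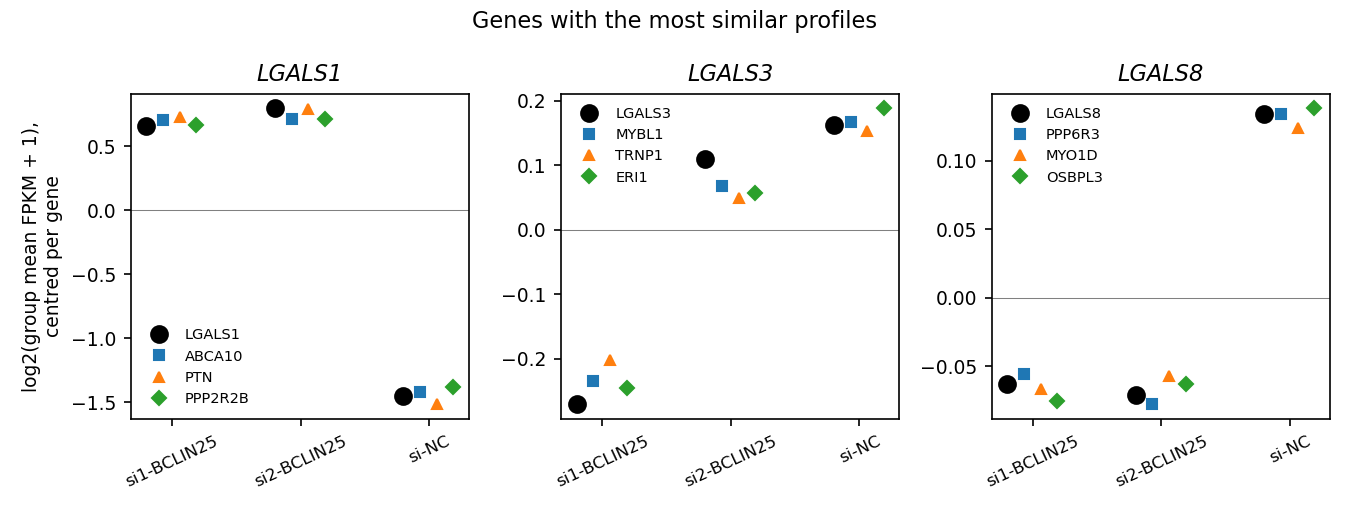
Log2(group mean FPKM + 1), centred per gene (vertical axes, which differ in range), for each galectin (black circles) and the 3 genes nearest to it in profile, in si1-BCLIN25, si2-BCLIN25 and si-NC. The LGALS1 set is high in both siRNA groups, the LGALS3 set is low in si1-BCLIN25, and the LGALS8 set is low in both by about 0.2 relative to si-NC.

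The partners of the galectins were tested in a limma model over all 12317 genes, in which a gene with a Benjamini-Hochberg adjusted p below 0.05 is called and described as having risen or fallen. As background, si1-BCLIN25 had 63.1% of all genes called against si-NC, 38.4% as higher and 24.6% as lower. For si2-BCLIN25 these shares were 63%, 38.6% and 24.4%. The excess of higher calls depended on the scaling: quantile normalization gave 3797 higher and 3775 lower genes in si1-BCLIN25, where the deposited values gave 4731 and 3035. For si2-BCLIN25 it gave 3814 higher and 3707 lower, where the deposited values gave 4756 and 3003. Both comparisons had an all-gene median log2 fold change of 0.06.

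Of 23 glycoproteins that galectins bind, 20 passed the 1 FPKM filter. Among these 20, si1-BCLIN25 had 7 that rose and 7 that fell, and si2-BCLIN25 had 11 that rose and 7 that fell; the list medians were 0.01 and 0.13 (log2 fold change). With median centring, an alternative chosen after seeing the data, 5 were higher and 8 lower in si1-BCLIN25. The 4 named by smallest p all fell. The hyaluronan receptor CD44 was at 59.8 ± 1.3 FPKM in si1-BCLIN25 and 60.5 ± 1.0 in si2-BCLIN25, against 208 ± 4.2 in si-NC, with log2 fold changes of -1.78 and -1.76 (limma SE 0.034; adjusted p = 4.25e-13 and 6.72e-13). The matrix protein fibronectin (FN1) was at 126 and 139 FPKM in the siRNA groups and 514 FPKM in si-NC. The laminin-binding integrin chain ITGA6 was at 160 and 162 FPKM, against 337 FPKM in si-NC, and NRP1, a co-receptor bound by galectin-1, was at 21.3 and 21.7 FPKM, against 39.7 FPKM in si-NC.

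LGALS3BP, a secreted glycoprotein known for binding galectin-3, rose. It was at 102 ± 5.4 FPKM in si1-BCLIN25 and 102 ± 5.0 in si2-BCLIN25, against 66.4 ± 3.5 in si-NC, by 0.61 and 0.62 in log2 (limma SE 0.051; adjusted p = 5.37e-07 and 4.99e-07). So LGALS3BP was higher in both siRNA groups, while LGALS3 was lower in si1-BCLIN25 and overlapped si-NC in si2-BCLIN25. ITGB1, a major integrin chain that galectins bind, was at 481 ± 16, 519 ± 3.4 and 507 ± 18 FPKM in si1-BCLIN25, si2-BCLIN25 and si-NC (SD, n = 3 each; adjusted p in limma = 0.102 and 0.47), and is named after its values were seen.

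The list for branched N-glycans and N-acetyllactosamine also held the O-glycan genes C1GALT1, C1GALT1C1 and GCNT1. Of its 26 genes, 24 passed the filter. Among these 24, both siRNA groups had 10 that rose and 9 that fell; the list medians were -0.01 and 0.07 (log2 fold change). With quantile normalization 7 were higher and 10 lower in si1-BCLIN25. MGAT5, which makes the branch that galectin-3 binds best, fell to 9.65 ± 0.13 FPKM in si1-BCLIN25 and 9.64 ± 0.21 in si2-BCLIN25, against 15.3 ± 0.70 in si-NC, by 0.62 in log2 in both (limma SE 0.045; adjusted p = 1.49e-07 for each). It lies on chromosome 2, and its 10 nearest tested neighbours had medians of -0.46 and -0.45. The galactosyltransferase B4GALT5 fell to 30.6 and 29.6 FPKM, against 45.7 FPKM in si-NC, and B3GNT3, which extends lactosamine chains, to 3.38 and 3.71 FPKM, against 6.96 FPKM in si-NC. The O-glycan branching enzyme GCNT1 rose to 5.07 and 5.14 FPKM, against 2.18 FPKM in si-NC, with log2 fold changes of 0.93 and 0.95 (limma SE 0.056; adjusted p = 2.17e-08 and 1.98e-08).

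The list for sialic acid and fucose capping also held FUT8 and the sialidases NEU1 and NEU3, which remove sialic acid, so its counts mix opposite functions. Of its 20 genes, 19 passed the filter. Among these 19, si1-BCLIN25 had 6 that rose and 7 that fell, and si2-BCLIN25 had 8 that rose and 8 that fell; the list medians were 0.08 and -0.10 (log2 fold change). The balance depended on the scaling: quantile normalization gave 3 higher and 9 lower in each siRNA group, and median centring 5 higher and 10 lower in si2-BCLIN25. ST6GAL1, whose sialic acid cap blocks binding of galectin-1, rose to 7.96 ± 0.52 FPKM in si1-BCLIN25 and 7.45 ± 0.047 in si2-BCLIN25, against 4.58 ± 0.46 in si-NC, by 0.69 and 0.60 in log2 (limma SE 0.066; adjusted p = 1.79e-06 and 5.88e-06). The core fucosyltransferase FUT8 fell to 30.0 and 32.1 FPKM, against 45.6 FPKM in si-NC, and FUT4 to 1.63 and 1.89 FPKM, against 4.14 FPKM in si-NC. ST3GAL1, a sialyltransferase of O-glycans, fell to 14.8 and 15.4 FPKM, against 20.4 FPKM in si-NC.

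Of 20 tested genes that act with galectins on damaged vesicles, si1-BCLIN25 had 10 that rose and 3 that fell, and si2-BCLIN25 had 12 that rose and 4 that fell; the list medians were 0.16 and 0.21 (log2 fold change) beside 0.06 over all genes. With median centring 11 were higher and 6 lower in si2-BCLIN25. CALCOCO2, the autophagy receptor that galectin-8 recruits, rose to 25.8 ± 0.57 FPKM in si1-BCLIN25 and 28.5 ± 0.91 in si2-BCLIN25, against 18.5 ± 1.6 in si-NC, by 0.46 and 0.60 in log2 (limma SE 0.053; adjusted p = 9.82e-06 and 9.66e-07). GABARAPL1, which coats autophagosomes, rose to 27.9 and 25.8 FPKM, against 9.39 FPKM in si-NC. TRIM16, a partner of galectin-3 on damaged lysosomes, rose to 10.8 and 12 FPKM, against 5.73 FPKM in si-NC, and the receptor OPTN to 30.9 and 32.8 FPKM, against 19.9 FPKM in si-NC. LGALS8 itself was lower than in si-NC by 0.20 on the log2 scale in both groups.

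Between the siRNA groups, limma called 0 of the 85 tested genes of the 5 lists, beside 0.585% of all genes, so nothing is read from the 0. In the same model 24 of the 85 had an unadjusted p below 0.05. The share of all genes with such a p was not determined, so nothing is read from that count either.

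**Figure D4:**
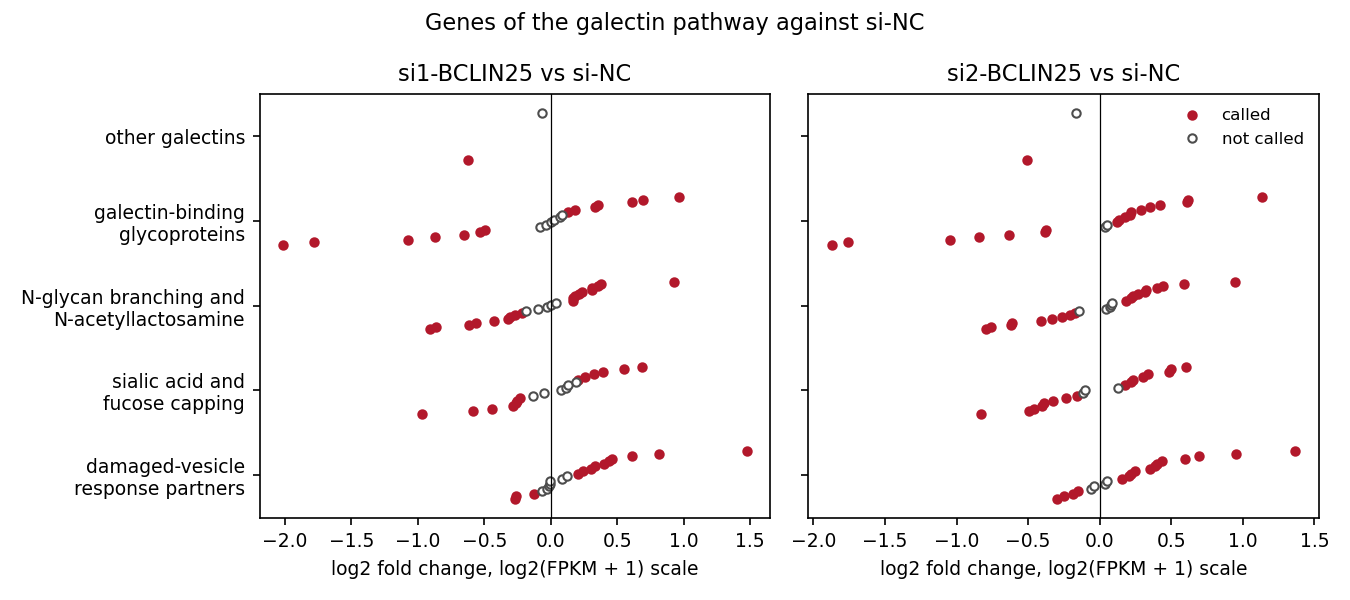
Log2 fold change on the log2(FPKM + 1) scale (horizontal axes) of every tested gene of the 5 lists in si1-BCLIN25 and in si2-BCLIN25, each against si-NC; filled points were called at an adjusted p below 0.05 and open points were not. Both directions occur in the glycoprotein, branching, capping and vesicle lists. The vesicle list has 10 and 12 called genes above 0 and 3 and 4 below. Of all genes, 38.4% and 38.6% were called higher and 24.6% and 24.4% lower.

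LGALS1 is also abundant in fibroblasts and other stromal cells, so their markers are given beside it. The summed level of 8 fibroblast markers was 27.8 to 29.7 FPKM in si1-BCLIN25 and 26.8 to 28.5 FPKM in si2-BCLIN25, against 15.4 to 16.6 FPKM in si-NC. Of these, 3 reached 1 FPKM in each siRNA library and 2 in each si-NC library. COL1A1 rose to 9.32 and 8.67 FPKM, against 3.75 FPKM in si-NC, LUM to 4.97 and 4.01 FPKM, against 0.50 FPKM, and THY1 to 13.7 and 14.7 FPKM, against 11.3 FPKM. FAP went the other way, at 0.03 and 0.02 FPKM, against 0.16 FPKM in si-NC. DCN and PDGFRB were also higher in the siRNA groups, at or below 0.24 and 0.47 FPKM. FAP, DCN and PDGFRB did not pass the filter and were not tested. COL1A2 and COL3A1, collagens that define fibroblasts, reached at most 0.02 and 0.04 FPKM in any library, with COL1A2 at 0 in every si-NC library. Their part in the LGALS1 difference was not tested. In bulk RNA, fewer cells of a type and less RNA per cell cannot be told apart.

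Of 8 markers of MDA-MB-231, 7 reached 1 FPKM in every library, with a summed level of 601 to 613 FPKM in si1-BCLIN25 and 646 to 661 FPKM in si2-BCLIN25, against 1100 to 1111 FPKM in si-NC. Vimentin (VIM), like LGALS1 abundant in mesenchymal cells, fell to 14.2 ± 0.70 FPKM in si1-BCLIN25 and 22.4 ± 0.12 in si2-BCLIN25, against 80.9 ± 0.41 in si-NC (SD, n = 3 each; adjusted p in limma = 1.29e-13 and 1.76e-12). MSN fell to 3.98 and 4.15 FPKM, against 72.9 FPKM in si-NC, and FOSL1 to 31.5 and 37.6 FPKM, against 185.5 FPKM. AXL, PLAU and CD44 also fell in both siRNA groups, and ZEB1 was not tested. CAV1, a caveolar coat protein, was the most abundant of the 8 in the siRNA groups and si-NC and went the other way. It rose to 366 and 382 FPKM, against 282 FPKM in si-NC (adjusted p in limma = 2.52e-06 and 6.27e-07). Of 6 markers of PC9 and lung, 4 reached 1 FPKM in each siRNA library and 3 or 4 in si-NC. Their summed levels were 888 to 976, 938 to 960 and 929 to 1037 FPKM in si1-BCLIN25, si2-BCLIN25 and si-NC. Most of each sum was KRT7, at 835, 866 and 883 FPKM, which was not called (adjusted p in limma = 0.195 and 0.678). CDH1 rose to 45.1 and 45.0 FPKM, against 31.7 FPKM in si-NC, and SFTPB to 1.85 and 1.48 FPKM, against 1.05 FPKM. EGFR fell to 35.9 and 36.3 FPKM, against 56.9 FPKM in si-NC. NKX2-1 and NAPSA did not pass the filter. The summed level of 6 leukocyte markers was 47.0 to 48.7 FPKM in si1-BCLIN25 and 43.3 to 43.9 FPKM in si2-BCLIN25, against 59.1 to 64.3 FPKM in si-NC, most of it LAPTM5, which fell to 41.6 and 36.7 FPKM, against 56.3 FPKM in si-NC. The monocyte marker CD14 rose to 1.07 and 1.10 FPKM, against 0.33 FPKM in si-NC (adjusted p in limma = 8.56e-05 and 6.53e-05). PTPRC, CD68 and LYZ did not pass the test in either comparison, and the B cell marker CD79A stayed at or below 0.21 FPKM. The 3 endothelial markers summed to at most 0.43 FPKM in the siRNA libraries and 0.60 FPKM in si-NC. Of 6 epithelial markers the sum was 2383 to 2577 FPKM in si1-BCLIN25 and 2334 to 2420 FPKM in si2-BCLIN25, against 1629 to 1707 FPKM in si-NC; KRT19 averaged 1665, 1555 and 688 FPKM in the same order. CDH1 and ESRP1 also rose in both siRNA groups, while 3 of the 6 fell in both. EPCAM fell to 95.2 and 106 FPKM, against 139 FPKM in si-NC, KRT18 to 175 and 178 FPKM, against 299.8 FPKM, and KRT8 to 430.4 and 419 FPKM, against 462 FPKM.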

How the data were processed

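RNA sequencing of 9 libraries was available as 1 table of FPKM values made by the authors, per the file headers. Per the labels' protocols, Trizol was used for extraction and a BGI500 for sequencing. The submitters' processing notes list RSEM 1.2.12, DESeq2 1.4.5, HISAT2 2.0.4 and Bowtie2 2.2.5 without saying what each did. The authors' build and gene models are not given in the sources. FPKM is scaled to each library's total, so a few very abundant genes can shift all others, and without counts no counting interval can be given.

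Groups and replicate numbers came from the library titles. Identifiers were matched to RefSeq symbols (17748 of 18064 rows). The model used log2(FPKM + 1) of genes that reached 1 FPKM in 3 or more libraries. It was a fit of group means to all 9 libraries by limma 3.58.1 (R 4.3.3, trended eBayes), with Benjamini-Hochberg adjustment over 12317 genes. SE are from this model, and SD is over the libraries of a group. The model was tested on 9 libraries simulated from the si-NC means and the residual spread of the fit (12317 genes). Changes were put into the si1-BCLIN25 libraries for 50 genes per fold, all with log2(FPKM + 1) above 3 in si-NC. It recovered 88% of genes changed 1.25-fold, 96% at 1.5-fold and 100% at 2-fold and 4-fold, and called 11 unchanged genes. Recovery for genes of lower level, or with as many genes changed as in this series, was not tested.

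The galectins and the lists were chosen with earlier results of these data known. Named are the 3 galectins, every other listed galectin in the table, LGALS3BP, MGAT5, ST6GAL1 and CALCOCO2, the 4 genes per list with the smallest mean rank of p over both comparisons with si-NC, the 3 genes nearest to each galectin in profile, and cell type markers. Segments of coding sequence were aligned with Biopython 1.88. The choices varied were the pseudocount (0.1), the filter (none, or 5 FPKM), quantile normalization, the trend, fitting only the compared groups, blocking on replicate number, and single libraries left out. Centring on the median was chosen after seeing the data.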

Additional observations from a re-analysis of the deposited data

How the results depend on the processing

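The values of LGALS1, LGALS3 and LGALS8 kept their direction against si-NC under all alternatives run, except LGALS3 in si2-BCLIN25, which ranged from -0.14 to 0.004 on the log2 scale with libraries left out. LGALS1 was 2.14 in si1-BCLIN25 and 2.28 in si2-BCLIN25 with a pseudocount of 0.1, 2.06 and 2.201 with median centring, and 2.28 in si2-BCLIN25 with quantile normalization; LGALS8 was -0.24 and -0.26 with median centring. Leaving out a library gave LGALS1 2.09 to 2.12 and 2.24 to 2.26, LGALS3 -0.46 to -0.39 in si1-BCLIN25, and LGALS8 -0.21 to -0.18 and -0.23 to -0.19. Of the other galectins, 1 of 2 tested was called in each siRNA group, and 2 of 2 in each with quantile normalization. With no filter 2 and 3 of 7 tested were called. With a minimum of 5 FPKM 0 were tested, so no call was possible. Leaving out libraries gave 1 to 2 calls (2 without si2-BCLIN25 replicate 1). Genes of the capping list called were 7 and 8 with a minimum of 5 FPKM, where 10 were tested. The share of all genes called under each alternative was not determined. With the settings used above it was 63.1% in si1-BCLIN25 and 63% in si2-BCLIN25, so nothing is read from these list counts. Between the siRNA groups 72 genes were called, but 3 with no filter, 110 with a minimum of 5 FPKM, 13 without trend, 230 with only those groups, and 2 to 126 with libraries left out. The replicate block gave 6 there and 7665 and 7626 calls against si-NC. Deviations of same-numbered libraries correlated between -0.164 and 0.139, and 3 of 18 matches were best with the same number. These values show no sign of pairing by number, but 3 libraries a group are too few to exclude it. Depth is unknown, so genes near 1 FPKM are the least certain.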
